A study of Mus musculus with 6 samples.

Results

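During differentiation of subventricular zone (SVZ) neural stem cells (NSCs), some H3K27me3 peaks lay across gaps between neighbouring peaks of proliferating cells. They are described here as spanning peaks: H3K27me3 peaks of the 30 h list on chromosomes 1 to 19, at most 10000 bp wide, that each overlapped 2 or more peaks of the proliferating list by at least 1 bp. There were 292 of them among 13713 peaks of the 30 h list on these chromosomes and up to that width, and among 15187 in the whole list. Members were selected on the measured positions and widths of peaks in both H3K27me3 lists, so the number of spanned peaks and what follows from it directly are descriptions and support nothing. The H3K4me3 list was not used in choosing them.

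The peaks are from ChIP-seq, which sequences the DNA pulled down with an antibody to a histone mark. H3K27me3 was measured 30 h after the start of differentiation and in proliferating cultures, and H3K4me3 in proliferating cultures that only in this case were labelled ventral. All were SVZ-derived NSC cultures of C57BL/6 mice at passages 5 to 7, and carried no genetic change named in the labels. Each of the 3 conditions had 1 library, so a difference between lists has no replicate check, none was tested, and a difference between cultures cannot be told apart from one between times. Intervals given below are 95% Wilson intervals for shares and cover counting error only.

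H3K27me3 is the mark of Polycomb repression. It is placed by a complex whose catalytic subunit is EZH2, is read by further Polycomb proteins, and can occupy stretches far broader than a single promoter at silent developmental genes. H3K4me3 marks the start of genes that are active or poised. Regions that hold both marks are called bivalent and are typical of developmental regulators in stem cells. A stretch between neighbouring H3K27me3 peaks is therefore of interest for whether it holds an H3K4me3 peak, and for whether H3K27me3 is later found across it.

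The 30 h list held 15187 peaks over 73.4 Mb, against 9470 peaks over 29.2 Mb in the proliferating list, and the H3K4me3 list held 18727 peaks. The lists contain no read counts, so the depth behind a peak is unknown, and the longer 30 h list moves with every comparison of the times. Each peak carries the authors' score from the peak caller. How it was computed is not stated, and its median was higher in wider peaks, so it is used as a rank within a list and not as a measure of enrichment. The lowest scores were close to 50 in all 3 lists, 228 to 8627 peaks a list reached 3100 or more, and scores were compared only within a list. Positions are given in mm9. The gene and sequence tables at hand are of another build, so no genes are named.

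Of the 292 spanning peaks, 278 lay over 2 proliferating peaks, 13 over 3 and 1 over 4. Together they touched 596 different proliferating peaks and enclosed 307 gaps, and 3 proliferating peaks were touched by 2 spanning peaks each. The share fixed by the rule was 2.13% of the 30 h peaks of this width. A further 3211 peaks lay over exactly 1 proliferating peak and 10210 over none. Spanning peaks were 2105 to 9973 bp wide with a median of 7151 bp, against a median of 4259 bp for peaks over exactly 1 and 2788 bp for peaks over none. Width and number of spanned peaks go together by construction: spanning peaks made up 0.269% of 30 h peaks 2 to 4 kb wide (21 of 7817), 2.60% at 4 to 6 kb (68 of 2619), 8.28% at 6 to 8 kb (95 of 1148) and 18% at 8 to 10 kb (108 of 600).

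The widest members lay close to the limit of the rule. They were 9973 bp (chr8:98143967-98153939), 9970 bp (chr14:24817870-24827839) and 9959 bp (chr8:109538980-109548938) wide. The narrowest 30 h peaks beyond the limit that met the other conditions were 10006 bp (chr9:102252927-102262932), 10011 bp (chr19:44222932-44232942) and 10037 bp (chr8:97456756-97466792) wide. Each of these 3 overlapped 2 proliferating peaks. On the other side of the rule, 128 of the 3211 peaks over exactly 1 proliferating peak (3.99%, 3.36 to 4.72%) had a further proliferating peak within 500 bp of an end.

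Most bridged gaps were short. Their median was 658 bp, the quartiles were 232 and 1478 bp, and the extremes were 2 and 7635 bp. Of the 307 gaps, 47 were under 100 bp, 126 (41.0%) under 500 bp, 198 (64.5%) under 1000 bp and 256 (83.4%) under 2000 bp, whereas 9 were 4000 bp or wider. The shortest gaps separate entries of the proliferating list that all but touch, so the count of spanning peaks depends on where the caller ended a peak. With proliferating peaks under 500 bp apart merged into one, 173 spanning peaks were left with a median gap of 1306 bp.

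Among all 2375 gaps of up to 10 kb between neighbouring proliferating peaks on the same chromosomes, spanning peaks joined 307 (12.9%) and 30 h peaks wider than 10 kb joined 969 (40.8%). The remaining 1099 (46.3%) were not joined by any 30 h peak. In 771 of these, both flanking peaks overlapped 30 h peaks, but not the same one. Joining became rarer as gaps grew: 30 h peaks of any width joined 734 of 902 gaps under 1000 bp (81.4%, 78.7 to 83.8%) and 115 of 655 gaps of 4000 to 10000 bp (17.6%, 14.8 to 20.7%). The limit of 10 kb on a spanning peak restricts the widest gaps it can hold.

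**Figure D1:**
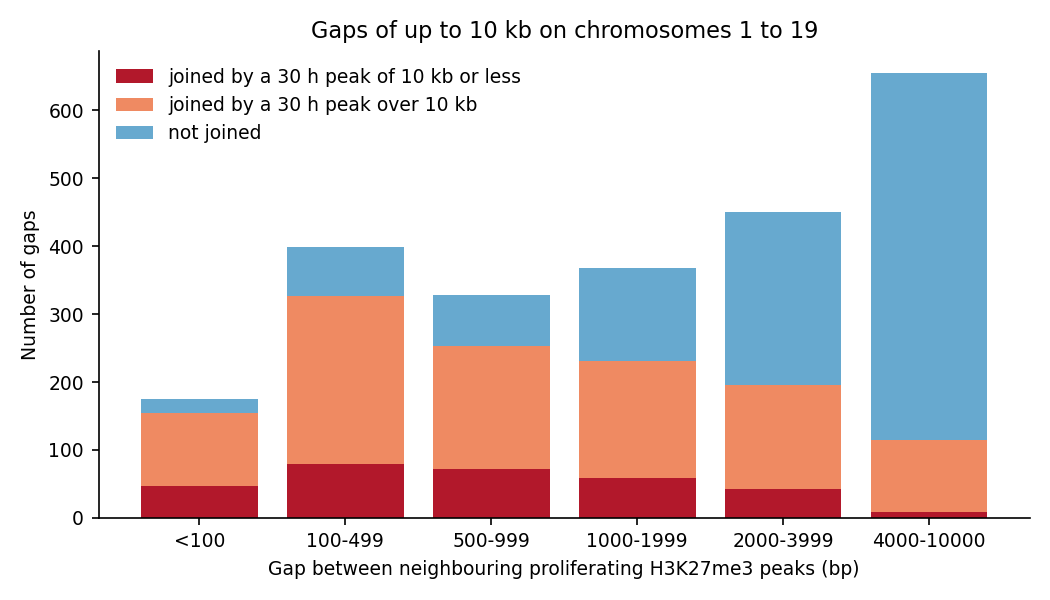
Number of gaps between neighbouring proliferating H3K27me3 peaks (y axis) by width of the gap (x axis, bp), split by whether a 30 h peak of 10 kb or less (spanning peaks), a wider 30 h peak or no 30 h peak joined both flanks. Spanning peaks joined 47 gaps under 100 bp and 9 of 4000 bp or more, and the gaps not joined numbered 20 and 540 in the same classes.

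The gaps made up a small part of the spanning peaks. Per peak, a median of 62.7% of the length lay under proliferating peaks, 9.71% in gaps and 19.3% beyond the outermost proliferating peaks. Summed over all 292 peaks, 1242 kb lay under proliferating peaks, 320.6 kb in gaps and 477.9 kb beyond the ends. In 188 of 292 peaks (64.4%, 58.7 to 69.7%) more length lay beyond the ends than in the gaps, and in 12 more than 50% of the length was gap. The 30 h peak ran past both outermost ends in 135 cases, past 1 end in 131 and past neither in 26. The 135 members that ran past both ends held every spanned peak whole. In the other 157 members, at least 1 proliferating peak itself ran out beyond an end of the 30 h peak. Of the 599 overlaps with proliferating peaks, 416 (69.4%, 65.6 to 73.0%) held the proliferating peak whole.

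**Figure D2:**
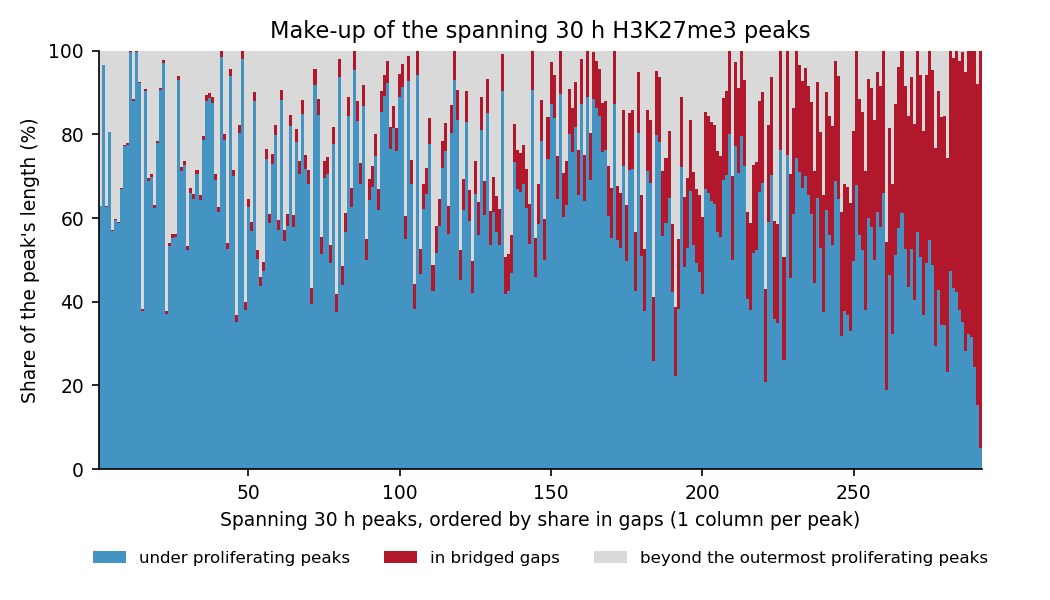
Share of each spanning 30 h peak's length (y axis, percent) under proliferating peaks, in bridged gaps and beyond the outermost proliferating peaks, with 1 column for each of the 292 peaks, ordered by the share in gaps (x axis). The share in gaps is under 9.71% for the left part of the columns up to the median and reaches 94.9% at the right edge.

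Contact with a proliferating peak was slight in some members. The smallest overlap with a spanned peak had a median of 1518 bp, but in 17 members it was under 100 bp and at its lowest it was 2 bp. In 224 members at least 50% of every spanned peak lay inside the 30 h peak, and 232 still spanned 2 or more when only proliferating peaks at least 50% inside were counted.

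The spanned proliferating peaks had middling scores in their own list, whereas the 30 h peaks over them ranked high in theirs. The median score percentile was 84.5 for spanning peaks in the 30 h list and 53.1 for the spanned peaks in the proliferating list. Proliferating peaks that met a 30 h peak over no other proliferating peak had a median percentile of 65.1. The median width was 2134 bp for the spanned peaks, against 2345 bp for those others. In 71 members every spanned peak scored below the median of the proliferating list, and in 91 every one scored at or above it. These ranks come from the lists that set the rule and are descriptions.

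Partners in a spanned pair were mostly alike in width. The wider was a median of 1.40 times as wide as the narrower, and in 63 of 307 pairs (20.5%) more than 2 times. The wider partner had the higher score in 267 pairs (87.0%). Among 30 h peaks of like width, scores of spanning peaks and of peaks over exactly 1 proliferating peak were close. Their medians were 169 and 176 at 2 to 4 kb, 436 and 432 at 4 to 6 kb, 670 and 746 at 6 to 8 kb, and 996 and 1132 at 8 to 10 kb. Peaks over none had 102, 262, 448 and 682 in the same classes.

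The spanning peak over most proliferating peaks was 9365 bp wide (chr8:19866847-19876211) and scored 523. It met 4 proliferating peaks of 2506, 1649, 1606 and 4655 bp with scores of 84.2, 73.0, 71.4 and 245, and its 3 gaps were 2237, 452 and 487 bp wide. No H3K4me3 peak overlapped it. The widest of those over 3 peaks was 9814 bp wide (chr9:21695491-21705304), with gaps of 951 and 2302 bp between proliferating peaks that scored 57.1, 117 and 54.1. Similar arrangements of 3 peaks were found in chr9:57712497-57721495 (gaps of 2217 and 592 bp), chr11:60419920-60428832 (614 and 1169 bp) and chr8:19993622-20002429 (2467 and 1510 bp). None of these 5 members overlapped H3K4me3.

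The 5 widest gaps differed in how the 30 h peak met the proliferating peaks beside them. In chr12:104480912-104490868 the gap of 7635 bp was bounded on the left by a proliferating peak that the 30 h peak met by 2 bp, so nearly all of its shared length lay at the right end. In chr11:32829072-32838336, low-scoring proliferating peaks of 1681 and 1575 bp (scores 50.3 and 52.1, near the lowest in the list) stood at either end of a gap of 5971 bp, and the 30 h peak, which scored 865, ended 29 bp beyond the left one and 9 bp beyond the right one. The members chr4:145577576-145585769 (gap 6190 bp) and chr11:60428880-60438075 (4830 bp) each reached into the inner edges of 2 proliferating peaks that ran on outside. The last of the 5, chr8:19883329-19892522 (6137 bp), held H3K4me3 in its gap and is described below.

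The 5 highest-scoring members had gaps of 93 to 726 bp. The member chr5:93471026-93480976 scored 3100 at 30 h, and its proliferating peaks scored 2956 and 91.7 across a gap of 533 bp. Scores of 2715 (chr2:146903626-146910963), 2544 (chr12:57516534-57524788), 2415 (chr2:104937973-104947764) and 2340 (chr4:139798134-139807649) followed, with gaps of 197, 93, 726 and 145 bp. In 3 of these 5 members 1 partner stood out in the proliferating list: besides the chr5 member, the partners scored 61.8 and 1420 in chr2:146903626-146910963 and 1026 and 85.3 in chr4:139798134-139807649. The other 2 members had partners of 137 and 186, and of 111 and 250. H3K4me3 overlapped the chr5 and chr4 members, with scores of 530 and 478, in both cases over the higher-scoring proliferating peak and outside the gap.

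H3K4me3 was rare in the bridged gaps, but with all widths together a difference from all gaps was not shown. An H3K4me3 peak overlapped 16 of 307 bridged gaps by at least 1 bp (5.21%, 3.23 to 8.30%). Of all 2173 gaps between neighbouring proliferating peaks up to the same widest gap, 7635 bp, 8.1% overlapped one, which lies within this interval. The 2173 gaps include the 307 bridged ones and those joined by wider 30 h peaks, and the latter had 4.64% up to that width. Unjoined gaps alone are compared further below. No H3K4me3 peak lay wholly inside a bridged gap (0 of 307, which allows a share of up to 0.977%, with a Wilson upper limit of 1.24%), and 5 had their centre there. All 16 H3K4me3 peaks reached into the gap from, or across, a spanned proliferating peak: 13 covered the gap completely and 3 covered part of it. Where neither flanking proliferating peak overlapped H3K4me3, the gap held none either (0 of 229, which allows up to 1.31%, with a Wilson upper limit of 1.65%). Where at least 1 flank did, 16 of 78 gaps held it (20.5%, 13.0 to 30.8%). With proliferating peaks under 500 bp apart merged, 2.21% of the remaining gaps held H3K4me3. With the higher-scoring 50% of each list none did, but that setting itself removes most H3K4me3 peaks over members.

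The member with most H3K4me3 in its gap was chr8:19883329-19892522, where a H3K4me3 peak of 4575 bp that scored 3100 covered 1518 bp of the gap of 6137 bp. Its flanking proliferating peaks were unequal, 1611 bp wide with a score of 58.2 and 11964 bp wide with a score of 1798. In chr9:59422473-59432290, H3K4me3 covered 1354 bp of a gap of 3467 bp from the left partner and left the right part of the gap free. In chr12:104480912-104490868 it covered 591 bp at the left edge of the gap of 7635 bp. These were the only 3 gaps over 1 kb with H3K4me3, and all 3 were covered in part.

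In the other members with H3K4me3 in the gap, the H3K4me3 peak lay over the whole gap. The widest such gap was 815 bp (chr11:80962412-80970998), under an H3K4me3 peak of 2394 bp that scored 1052. It was followed by gaps of 396 bp (chr2:162692574-162699376), 291 bp (chr3:13469834-13476986), 247 bp (chr1:88563657-88569147), 231 bp (chr14:56442307-56446233), 219 bp (chr14:24817870-24827839) and 181 bp (chr5:137500869-137508414). The H3K4me3 peaks across them scored 163, 2257, 1149, 207, 2220 and 627, in the same order. Over all 16, the median width of the H3K4me3 peaks was 2060 bp, more than most bridged gaps could have enclosed.

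**Figure D3:**
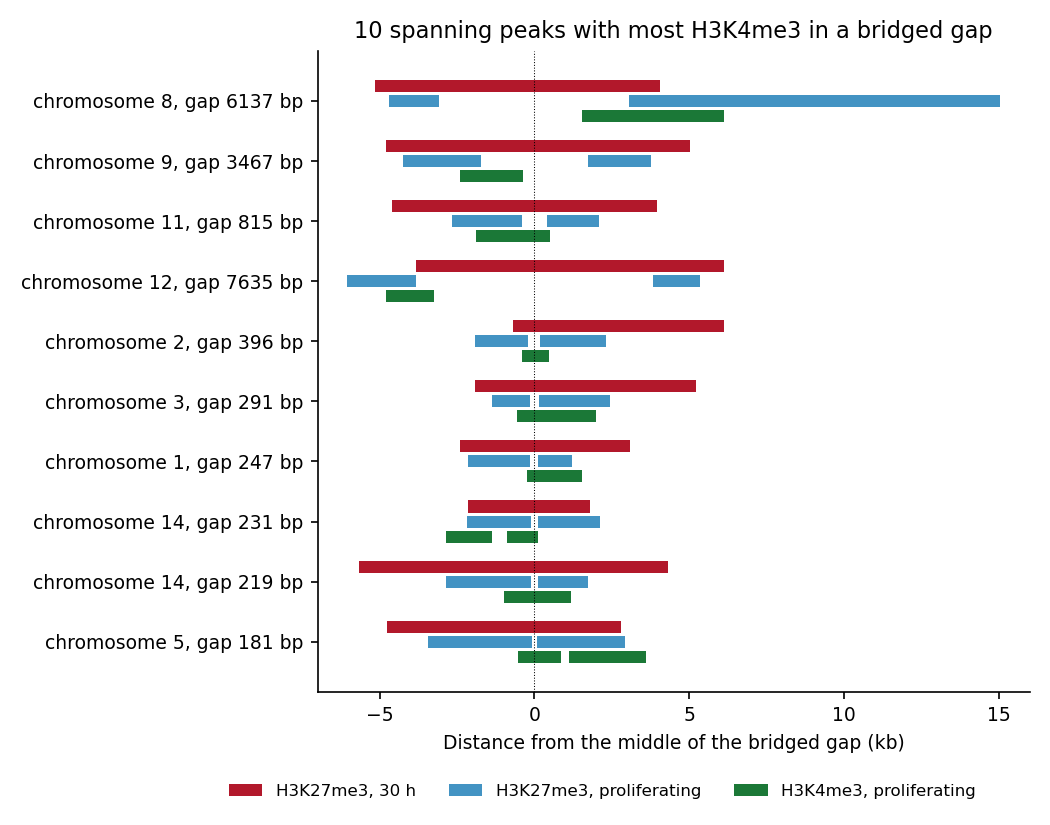
The 10 spanning peaks with most H3K4me3 in a bridged gap, drawn to scale as distance from the middle of the gap (x axis, kb), with the 30 h H3K27me3 peak, the proliferating H3K27me3 peaks and the H3K4me3 peaks of each (rows). In the rows with gaps of 6137, 3467 and 7635 bp H3K4me3 covers part of the gap, and in the other 7 it covers the gap completely.

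Within the spanning peaks, H3K4me3 lay mainly over the proliferating peaks. It covered 96.1 kb of the length under proliferating peaks (7.74%), 6.24 kb of the gaps (1.95%) and 8.57 kb beyond the outermost ends (1.79%). Of the 82 spanning peaks that overlapped H3K4me3 at all, 45 did so in the spanned parts alone, 11 in spanned parts and an outer end, and 10 in an outer end alone. In 15 it lay in a gap and a spanned part, and in 1 in all 3 kinds of stretch. None had it in a gap alone (0 of 292, which allows up to 1.03%).

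Gaps that stayed unjoined held H3K4me3 more often than bridged gaps of like width. Up to 7635 bp, 116 of 918 unjoined gaps overlapped H3K4me3 (12.6%, 10.6 to 14.9%), but bridged gaps were narrower, with a median of 658 bp against 3130 bp in unjoined ones. Unjoined gaps were not free of 30 h H3K27me3, as 30 h peaks covered 47.1% of them up to 7635 bp. From 100 to under 500 bp this was 21.9%, and from 2000 to under 4000 bp 50.3%. Within width classes, 5 of 47 bridged gaps under 100 bp held H3K4me3, against 6 of 20 unjoined ones. From 100 to under 500 bp the counts were 7 of 79 bridged (8.86%, 4.36 to 17.2%) and 26 of 73 unjoined (35.6%, 25.6 to 47.1%). From 500 to under 1000 bp they were 1 of 72 bridged (1.39%, 0.246 to 7.46%) and 11 of 75 unjoined (14.7%, 8.39 to 24.4%). Intervals did not overlap in these last 2 classes.

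Above 1000 bp the classes were closer. None of 58 bridged gaps from 1000 to under 2000 bp held H3K4me3, which allows up to 5.17%, with a Wilson upper limit of 6.21%. Of the unjoined ones 8 of 137 did (5.84%, 2.99 to 11.1%), a share within that Wilson limit. From 2000 to under 4000 bp 1 of 42 bridged and 23 of 254 unjoined gaps did, and from 4000 bp 2 of 9 bridged and 67 of 540 unjoined. In the last class the bridged share was the higher, 22.2% against 12.4%, on 9 gaps. Both gaps with H3K4me3 lay beside a partner met only at its edge. In chr12:104480912-104490868 that overlap was 2 bp. In chr8:19883329-19892522 most of the right partner of 11964 bp lay outside the 30 h peak. H3K4me3 lay in 5.21% of bridged gaps, against 19.9% of unjoined gaps once their shares were weighted to the widths of the bridged gaps. For the unjoined gaps whose flanks both met 30 h peaks, the weighted share was 29.0%.

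Gaps joined by wider 30 h peaks also held H3K4me3 less often than unjoined ones. Under 1000 bp, 13 of 198 gaps in spanning peaks (6.57%, 3.88 to 10.9%) and 22 of 536 in 30 h peaks over 10 kb (4.10%, 2.73 to 6.14%) held H3K4me3, against 43 of 168 unjoined gaps (25.6%, 19.6 to 32.7%). H3K4me3 was also less frequent on the flanks of short bridged gaps than on those of unjoined ones. In 30 h peaks over 10 kb the flank share under 1000 bp was closer to that of unjoined gaps, 202 of 536 (37.7%, 33.7 to 41.9%). Under 1000 bp, 56 of 198 bridged gaps (28.3%, 22.5 to 34.9%) had H3K4me3 on at least 1 flanking proliferating peak, against 70 of 168 unjoined ones (41.7%, 34.5 to 49.2%), with intervals that just overlapped. Among these gaps with a marked flank, H3K4me3 reached into 13 of 56 bridged (23.2%, 14.1 to 35.8%) and 43 of 70 unjoined ones (61.4%, 49.7 to 72.0%). From 1000 to 7635 bp, flanks carried H3K4me3 at 22 of 109 bridged gaps (20.2%, 13.7 to 28.7%) and 200 of 750 unjoined ones (26.7%, 23.6 to 29.9%). Gaps of this width in 30 h peaks over 10 kb had 123 of 412 (29.9%, 25.6 to 34.4%). With a marked flank, H3K4me3 lay in 3 of 22 of these bridged gaps (13.6%, 4.75 to 33.3%) and in 62 of 200 unjoined ones (31%, 25 to 37.7%), and the intervals overlapped.

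**Figure D4:**
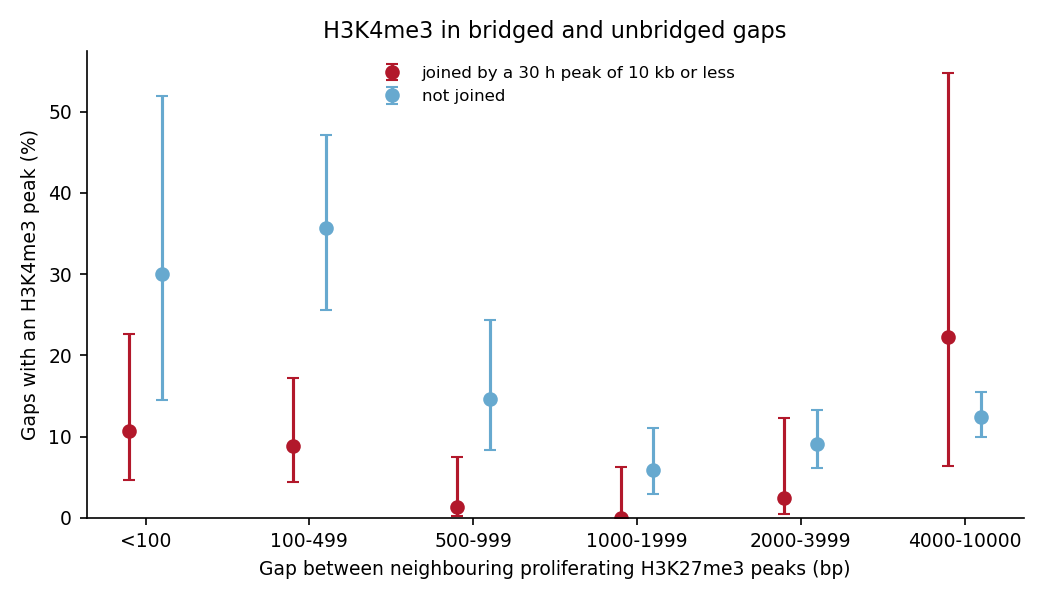
Share of gaps between neighbouring proliferating H3K27me3 peaks that overlap an H3K4me3 peak (y axis, percent), by width of the gap (x axis, bp), for gaps in spanning peaks and gaps that no 30 h peak joined. Points are shares in 1 library per mark with 95% Wilson intervals. From 100 to under 500 bp they are 8.86% and 35.6%, and only from 4000 bp, on 9 bridged gaps, is the bridged share the higher.

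Read in the opposite direction, joining was less frequent and H3K4me3 in the gaps more so. Of 8715 proliferating peaks on chromosomes 1 to 19 up to 10000 bp wide, 146 (1.68%, 1.43 to 1.97%) overlapped 2 or more 30 h peaks. As a share of peaks that met the other list at all, 292 of 3503 30 h peaks (8.34%, 7.47 to 9.30%) and 146 of 5344 proliferating peaks (2.73%, 2.33 to 3.20%) lay over 2 or more. The 30 h peaks were the wider, with a median of 3229 bp against 2074 bp over each whole list, and the part of width in this difference was not tested. The gaps differed as well: those in the spanning peaks had a median of 658 bp, against 232 bp for those between 30 h peaks under a single proliferating peak. H3K4me3 overlapped 16 of 307 gaps in the spanning peaks (5.21%, 3.23 to 8.30%) and 32 of 148 gaps in the opposite direction (21.6%, 15.8 to 28.9%). These gaps are unlike: a bridged gap lies between proliferating peaks, and a gap in the opposite direction lies under one. Within members, H3K4me3 covered 7.74% of the length under proliferating peaks and 1.95% of the gaps. The shares were not compared at like width, so no effect of direction can be read from them.

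As whole peaks, the members overlapped H3K4me3 in 82 of 292 cases (28.1%, 23.2 to 33.5%), against 13.7% of all 13713 peaks of the 30 h list on these chromosomes and up to 10 kb. Peaks over exactly 1 proliferating peak overlapped it in 1159 of 3211 cases (36.1%, 34.5 to 37.8%), and peaks over none in 644 of 10210 (6.31%, 5.85 to 6.80%). Although spanning peaks were the widest of the 3 kinds, they did not overlap H3K4me3 most often. The H3K4me3 peaks are those of proliferating cultures, and H3K4me3 at 30 h was not measured. Within width classes the shares for spanning peaks and for peaks over exactly 1 were 33.3% and 35.4% at 2 to 4 kb, 25% and 37.0% at 4 to 6 kb, 29.5% and 37.6% at 6 to 8 kb, and 27.8% and 36.7% at 8 to 10 kb. The share of spanning peaks was the lower in all 4 classes. Intervals of both kinds overlapped in each class, which is not a test of a difference, and none was run. Over all widths the intervals were separate (23.2 to 33.5% and 34.5 to 37.8%). With the higher-scoring 50% of each list, 4.30% of 93 spanning peaks overlapped H3K4me3.

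**Figure D5:**
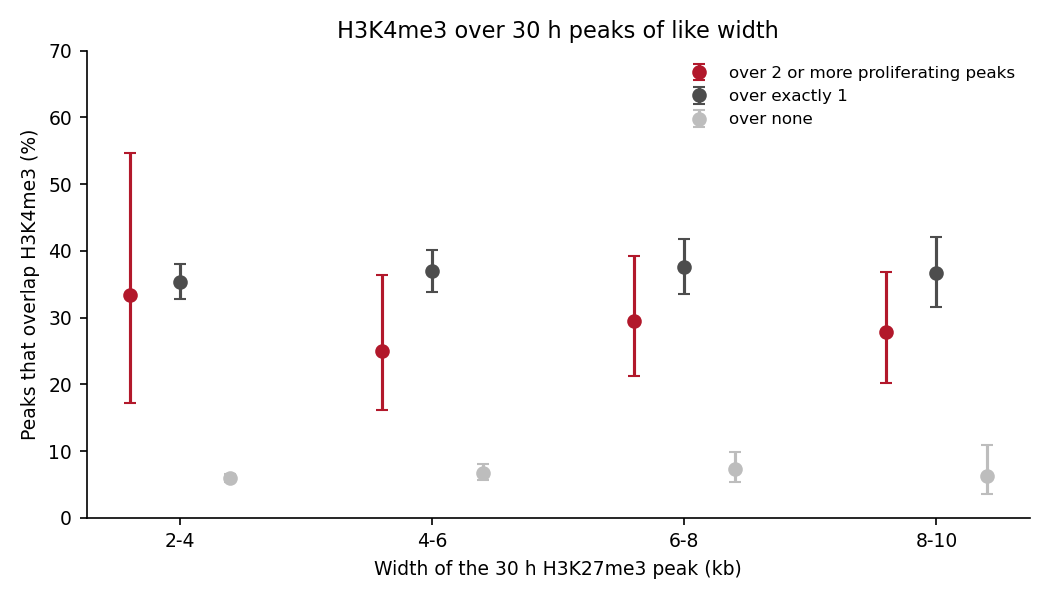
Share of 30 h H3K27me3 peaks that overlap an H3K4me3 peak (y axis, percent), by width of the 30 h peak (x axis, kb), for peaks over 2 or more, exactly 1 and no proliferating peaks. Points are shares with 95% Wilson intervals. The H3K4me3 peaks are those of proliferating cultures. Spanning peaks lie between 25% and 33.3%, below the 35.4% to 37.6% of peaks over exactly 1 with overlapping intervals, and peaks over none between 5.93% and 7.29%.

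Per proliferating peak the difference was larger, but the units differ. A member counts 2 or more proliferating peaks and a comparison peak counts 1. H3K4me3 over only 1 of a member's peaks therefore lowers its share. Of the 596 spanned proliferating peaks, 91 overlapped H3K4me3 (15.3%, 12.6 to 18.4%). Of the 3095 under 30 h peaks of the same width limit that lay over exactly 1, 1070 did (34.6%, 32.9 to 36.3%). In 60 members 1 of the spanned peaks overlapped H3K4me3, in 16 members 2 did, and in 216 none did. The spanned peaks also scored lower in their list, as given above. The part of score, width and number of peaks per member in this difference was not tested. The 89 H3K4me3 peaks over the members had a median width of 1605 bp and a median score of 998. Those over peaks that met exactly 1 proliferating peak had 1522 bp and 799, and the values were 1970 bp and 2622 for all 18727 H3K4me3 peaks. Of those 89, 17 scored 3100 or more (19.1%, 12.3 to 28.5%), against 13.8% over peaks that met exactly 1 (11.9 to 15.8%) and 46.1% of the whole list.

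Members with and without H3K4me3 were not clearly apart in gap width or score. The widest gap of a member had a median of 509 bp in the 82 with H3K4me3 and 721 bp in the 210 without, with order-statistic 95% intervals of 308 to 702 bp and 607 to 874 bp that overlapped. The 30 h scores had medians of 754 and 651, also with overlapping intervals (622 to 985 and 590 to 710).

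Spanning peaks more often had another 30 h peak close by. The distance to the next 30 h peak had a median of 1666 bp, and 182 of 292 (62.3%, 56.6 to 67.7%) had another within 3 kb. For peaks over exactly 1 proliferating peak the median was 3528 bp and the share 47.6% (45.8 to 49.3%), and for those over none 3630 bp and 46.0% (45.0 to 47.0%). Most members were thus entries of the list with a close neighbour. The distances come from a list that set the rule, and members were wider than both other kinds. The part of width was not tested, so these values are descriptions. Members were less often close to one another: 26 lay within 10 kb and 56 within 100 kb of another member.

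Only 6 groups of 3 or more members less than 100 kb apart were found, with 20 members in all. The largest held 5 members within 49.8 kb (chr11:60403960-60453797), 4952 to 9196 bp wide with scores of 243 to 705, and none of them overlapped H3K4me3. Among them, chr11:60413303-60419752, chr11:60419920-60428832 and chr11:60428880-60438075 followed one another closely. Neighbours in this row met the same proliferating peak, so they are not separate examples. The 3 members of chr8:19853925-19892522 lay within 38.6 kb and the 3 of chr4:145577576-145602300 within 24.7 kb. In these, 1 and 2 members overlapped H3K4me3. These groups were singled out after their values were seen.

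Every one of the 19 chromosomes held members, 5 on chromosomes 13 and 19 and 34 on chromosome 11. As a share of 30 h peaks up to 10 kb, chromosome 17 was the highest with 24 of 596 (4.03%, 2.72 to 5.92%), followed by chromosome 8 with 23 of 712 (3.23%, 2.16 to 4.80%). The lowest was chromosome 13 with 5 of 505 (0.990%, 0.424 to 2.30%). Of the 19 chromosomes, 17 and 8 had intervals that left out the 2.13% of all, and no allowance was made for looking at 19.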

How the data were processed

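The deposited lists give position and score for each peak. Alignment used Bowtie2 and mm9, per the submitters' processing notes. The authors called peaks with MACS, without model or lambda for H3K27me3. Its version, threshold, H3K4me3 settings and use of input: not given in the sources used here. Scores are as deposited, the caller's own. Starts were read as BED and are printed 1 higher. Input libraries were not used here, and read depth is unknown.

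Peak positions were compared in Python 3.11.15 (numpy 2.4.6, pandas 2.3.3, scipy 1.17.1, with figures by matplotlib 3.10.9), and bedtools 2.31.1 gave the same number of members. The code was tested on simulated data, with 200 of 200 planted spanning peaks recovered among 1000 peaks. A gap is the stretch between neighbouring proliferating peaks. Named regions were the 5 members over most peaks, with the widest gap and with the highest score, the 10 with most H3K4me3 in gaps, and 3 on either side of the width limit. Members, comparisons and rules were chosen with earlier results of these data known. The alternatives changed the overlap, score limit, list length, width limit and merging.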

Additional observations from a re-analysis of the deposited data

Results flagged for a closer look

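Outside chromosomes 1 to 19, which the comparisons leave out, 9 of 295 peaks of the 30 h list up to 10000 bp wide overlapped 2 or more proliferating peaks. This is above the 3 that a count of 0 allows, but 3 is not the count to be expected. On chromosomes 1 to 19 the share was 2.13%, and a difference from it was not tested. All 9 lay on contigs without a set position on a chromosome, 5 of them among 23 peaks on those assigned to chromosome 1. None of their 9 gaps held H3K4me3, which allows up to 33.3%. On chromosome X 0 of 136 peaks overlapped 2 or more proliferating peaks, which allows up to 2.21%.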

How the results depend on the processing

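Of 76 alternative values, 34 stayed within 1.5 times the reported count or ratio or within the interval of a median or share, and 42 moved. Counting only proliferating peaks at least 50% inside, 10 members had H3K4me3 in a gap and the median score was 728.5. With the higher-scoring 50% of each list, 93 members spanned 187 proliferating peaks, 4.30% overlapped H3K4me3, 0 had it in a gap (0% of gaps and of gap length), and the median score was 742. The H3K4me3 values of this setting are no check, because it cuts the H3K4me3 list near a score of 2622. The third quartile of H3K4me3 peaks over members was 2220. Without a width limit, 868 members spanned 2135 peaks with a median width of 13274 bp, gap of 778 bp and score of 2012, 41.8% overlapped H3K4me3 and 58 had it in a gap. With a limit of 5000 bp, 53 members spanned 108 peaks with a median width of 4325 bp, gap of 308 bp, gap share of 6.89% and score of 285, and 5 members and 9.09% of gaps held H3K4me3 (1.20% of gap length). With proliferating peaks under 500 bp apart merged, 173 members spanned 349 peaks with a median width of 7748 bp, gap of 1306 bp and gap share of 19.3%, and 4 members and 2.21% of gaps held H3K4me3. With only the 2196 highest-scoring peaks of the 30 h list, which matches the covered length of the proliferating list and was chosen after seeing the data, 129 members spanned 265 peaks with a median width of 8482 bp and score of 1091, 34.1% overlapped H3K4me3 and 5 had it in a gap. With the centre of the H3K4me3 peak required inside the gap, 5 members and 1.63% of gaps held it, and with the whole peak required 0 members and 0% did. With lists of equal number nothing moved. The stricter settings keep fewer peaks by construction, and otherwise the cause was not tested. No paired analysis was possible because each condition had 1 library. The lists give no depth, so a stretch without a peak is not shown to lack the mark.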

Other observations

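Beyond the width limit, 576 of 1158 peaks of the 30 h list over 10 kb on chromosomes 1 to 19 (49.7%, 46.9 to 52.6%) also overlapped 2 or more proliferating peaks, up to 11. Their 978 gaps had a median of 837 bp and reached 13910 bp. H3K4me3 lay in 5.21% of the gaps in members up to 10 kb and in 44 of these 978 (4.50%, 3.37 to 5.99%). As whole peaks, 281 of these 576 overlapped H3K4me3 (48.8%, 44.7 to 52.9%).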
